A study of Mus musculus with 4 samples.

Results

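Ribosome biogenesis factors are the proteins that make and process ribosomal RNA and assemble it with ribosomal proteins. Their transcripts were examined in RNA-seq libraries of forelimbs from Shh null and wild-type mouse embryos. The set held 49 genes of the 17712 in the deposited expression table. They were picked by name, and each had to reach a value of at least 1 in at least 2 libraries, which all 49 did. The list was drawn up with the differences between these genotypes already known, so counts over the 49 genes describe them and do not test them. The lowest value of any member in any library was 15.7, in Rrs1, so no member lay near the minimum of 1.

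The tested embryos were Shh null, without a functional Sonic hedgehog gene per the genotype label, and were compared with wild-type littermates. Each genotype had 2 libraries of total RNA from forelimb, and all embryos were Swiss Webster mice. The age label gives E10.25 with 33 to 35 somites for every library, whereas the source label gives E10.5. The labels name neither the Shh allele nor the number of limbs behind a library. The design text calls the libraries of a genotype technical replicates, so the p-values below measure only the spread between these libraries.

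Ribosomes are built mainly in the nucleolus. RNA polymerase I transcribes a long precursor RNA, small nucleolar RNPs and separate enzymes modify its bases and sugars, and the small subunit processome folds and cuts the part that becomes the small subunit. Other factors assemble the large subunit, and late factors accompany each subunit to the cytoplasm. Growing embryonic tissue needs many ribosomes, and mutations in several of these genes, Tcof1 among them, cause craniofacial or skeletal disorders.

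The deposited values were CPM, reads scaled to library sizes that had been adjusted by edgeR's TMM method. They gave back whole reads, 21489093 to 23206944 per Shh null library and 18456502 to 29620468 per wild-type library. Differences are given as a log2 fold change, the mean of log2(CPM + 1) in Shh null minus that in wild type, with its standard error (SE). A gene was called when the limma p-value, adjusted by the Benjamini-Hochberg method over 13224 tested genes, was under 0.05. Shh itself had 3.15 and 2.42 CPM in Shh null forelimbs and 11.4 and 7.88 CPM in wild-type forelimbs, the direction the labels give. The forelimb marker Tbx5 was at 65.0 to 80.2 CPM in Shh null and 61.5 to 65.0 CPM in wild type. Of 2 hindlimb genes, Pitx1 was at 0.457 CPM or less in all 4 libraries. The other, Tbx4, was detected, with 3.69 and 3.11 CPM in Shh null and 4.53 and 3.69 CPM in wild type.

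Other features of the libraries moved with genotype. Of 7 limb mesenchyme markers, 5 were called higher in Shh null, and their summed level was 1545 to 1579 CPM in Shh null against 1032 to 1074 CPM in wild type. Of 7 macrophage markers, 6 were tested and 1, Cx3cr1, was called higher, with sums of 22.1 to 23.1 CPM in Shh null against 11.5 to 12.2 CPM in wild type and none at 0 in any library. Xist, transcribed from the inactive X chromosome, had 468 to 522 CPM in Shh null and 152 to 225 CPM in wild type, and the Y-linked Ddx3y had 39.1 to 42.3 CPM in Shh null and 106 to 119 CPM in wild type, so the sex makeup of the samples differed. Embryonic globin transcripts summed to 3612 and 6156 CPM in Shh null and 10687 and 2846 CPM in wild type, overlapping between genotypes. Of 5 neural crest and glia markers, 2 were tested and 1, Erbb3, was called higher, with 22.8 and 22.0 CPM in Shh null against 13.6 and 11.4 CPM in wild type (log2 fold change 0.80, limma adjusted p = 0.0192), while Sox10 and Foxd3 lay at or near 0. Of 5 neuron markers, 3 were tested and 0 called, and these 3 went different ways. Isl1 was higher without overlap, with 4.52 and 2.84 CPM in Shh null against 1.61 and 1.27 CPM in wild type (log2 fold change 0.92, limma adjusted p = 0.0652). Elavl4 was lower without overlap, with 2.28 and 2.70 CPM in Shh null against 3.76 and 3.09 CPM in wild type (log2 fold change -0.34). Tubb3 overlapped between genotypes (log2 fold change 0.08). None of 7 surface ectoderm, 5 endothelium, 5 tested erythroid or 2 tested muscle precursor markers was called. The part of these differences in the results below was not tested. In whole forelimbs, fewer cells of a type and less RNA per cell cannot be told apart.

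Most ribosome biogenesis factors had somewhat lower values in the Shh null forelimbs, but few passed the test one by one. Of the 49 members, 48 had a log2 fold change below 0, against 50.1% of all tested genes and 59.7% of tested genes that averaged 15 CPM or more. The median log2 fold change was -0.28 over the members and -0.00048 over all tested genes. It corresponds to a median percent change of -17.9%. The log2 fold changes ran from -0.49 in Heatr1 to 0.01 in Nol6, with quartiles of -0.37 and -0.23. In 40 members every Shh null library lay below every wild-type library, in 0 the reverse held, and in 9 the genotypes overlapped; 25.0% of all tested genes, and 32.1% of those averaging 15 CPM or more, lay below in this way. The summed level of the 49 genes was 8331 and 8339 CPM in Shh null against 9938 and 10418 CPM in wild type. Npm1 alone made up a large share of that sum. Without it, the sums were 4689 and 4864 CPM in Shh null against 5897 and 6022 CPM in wild type, so both sums were lower in each Shh null library than in either wild-type library.

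With limma, 4 members were called lower in Shh null and 0 higher, beside 1.24% of all tested genes called in each direction and 2.48% in either. With 1 library left out the number of calls shifted both among the members and among all tested genes, as given in the last section. The member median log2 fold change was then -0.28 without Shh null library 1 and -0.31 without Shh null library 2. It was -0.32 without wild-type library 1 and -0.29 without wild-type library 2. At an unadjusted p under 0.05 limma counted 33 members lower and 0 higher, against 9.02% and 9.50% of all tested genes. Of tested genes averaging 15 CPM or more, 11.8% were lower at this unadjusted threshold. The authors' deposited table of differential expression, made from the same libraries, lists 7 members lower at a false discovery rate under 0.05 and 0 higher, against 1.68% of its genes lower. These were Nop2, Heatr1, Ddx21, Nolc1, Polr1b, Rrp12 and Gnl3.

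**Figure D1:**
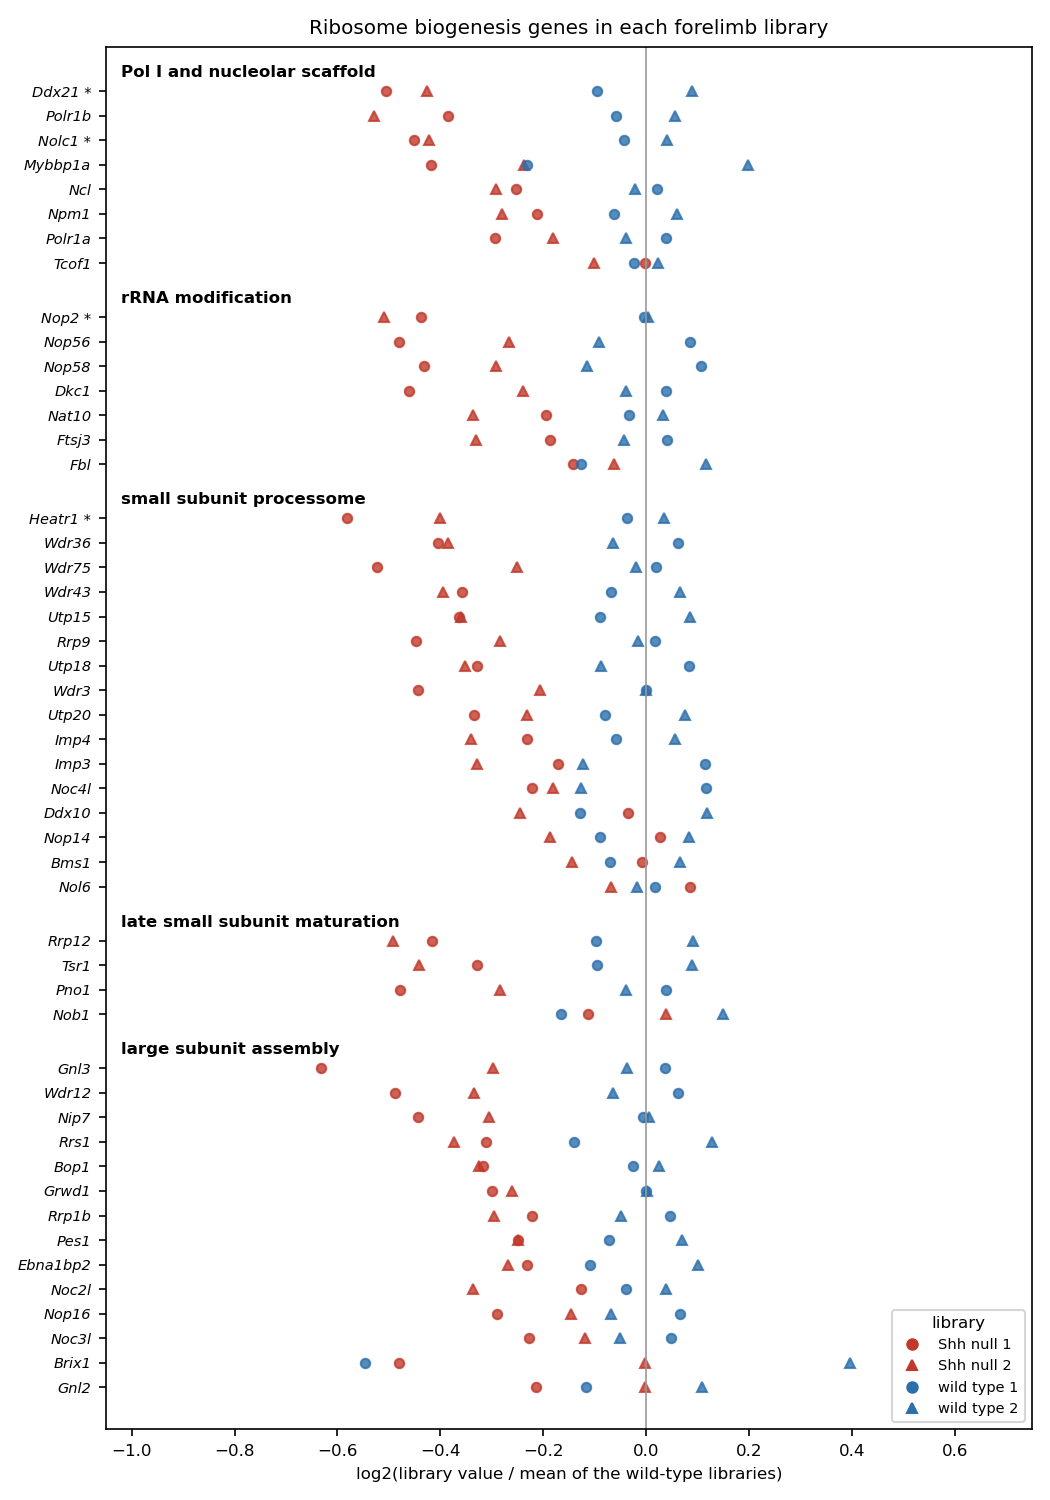
Level of each of the 49 ribosome biogenesis factors in each library, as the log2 of its CPM over the mean of the wild-type libraries (horizontal axis), grouped by role. Red marks the Shh null libraries and blue the wild-type libraries, circles replicate 1 and triangles replicate 2, and an asterisk a limma adjusted p under 0.05. Red symbols lie left of both blue symbols in 40 genes, and Brix1 has the widest gap between libraries of the same genotype.

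The 4 called members act at different steps. Nop2 methylates a cytosine of the large subunit's ribosomal RNA. It had 130.2 and 124 CPM in Shh null, against 176 and 177 CPM in wild type, and averaged 127 ± 4.39 CPM in Shh null and 176 ± 0.687 CPM in wild type (SD, n = 2 each). The genotypes did not overlap, and Nop2 fell by 28.0%, with a log2 fold change of -0.47 ± 0.09 (SE; limma adjusted p = 0.0312).

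Heatr1 is a large HEAT-repeat protein of the early small subunit processome that is also needed for transcription of ribosomal RNA genes. It had 137 and 155 CPM in Shh null, against 200.0 and 210.2 CPM in wild type, means of 146 ± 12.9 and 205 ± 7.26 CPM (SD, n = 2 each). Both Shh null libraries were low and both wild-type libraries high. Its log2 fold change was the most negative among the members, -0.49 ± 0.10 (SE; limma adjusted p = 0.0375).

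Ddx21 is an RNA helicase that binds ribosomal DNA and precursor RNA. It had 171 and 181 CPM in Shh null, against 227 and 258 CPM in wild type, and its log2 fold change was -0.46 ± 0.10 (SE; limma adjusted p = 0.0499). Nolc1, a chaperone of small nucleolar RNPs that shuttles between nucleolus and cytoplasm, had 85.0 and 86.7 CPM in Shh null, against 113 and 119 CPM in wild type. Its log2 fold change was -0.43 ± 0.10 (SE; limma adjusted p = 0.0499). In both genes the libraries of a genotype lay closer to each other than to any library of the other genotype, but both calls sit just inside the threshold.

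The 4 calls depended on the libraries and the tool. With Shh null library 1 left out, the limma adjusted p was 0.200 for Nop2, 0.316 for Heatr1, 0.308 for Nolc1 and 0.350 for Ddx21, and with Shh null library 2 left out it was 0.130, 0.0843, 0.137 and 0.127 for the same genes in that order; the lone Shh null library was then taken to vary like the wild-type libraries. Leaving out wild-type library 2 took the call from Nolc1 (0.0964) and Ddx21 (0.117), and edgeR's quasi-likelihood test on the recovered reads gave an adjusted p of 0.0374 for Nop2, 0.0452 for Heatr1, 0.0546 for Nolc1 and 0.0557 for Ddx21. With quantile normalization none of the 4 was called (limma adjusted p = 0.0866 to 0.136), nor with no filter on low values (0.0533 to 0.0888). edgeR called 2 members lower (1.12% of all tested genes) and DESeq2 called 10 (2.06%), among them all 4 that limma called.

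The stretches of 150 bases before the start of these 4 genes are shown because they carry motifs that recur among the members and are counted further down. They come from RefSeq (GRCm38.p6), 5′ to 3′ on the gene's own strand, and end at the base before the start. Capitals mark CGGAAG, the core bound by ETS factors, or its reverse complement CTTCCG, and the E-box CACGTG, a site of Myc and related factors.
Nop2, chr6:125131733-125131882, plus strand: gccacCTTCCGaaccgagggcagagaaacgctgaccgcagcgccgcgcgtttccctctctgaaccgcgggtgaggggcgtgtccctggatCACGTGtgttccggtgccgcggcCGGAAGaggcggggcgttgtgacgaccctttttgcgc
Heatr1, chr13:12395225-12395374, plus strand: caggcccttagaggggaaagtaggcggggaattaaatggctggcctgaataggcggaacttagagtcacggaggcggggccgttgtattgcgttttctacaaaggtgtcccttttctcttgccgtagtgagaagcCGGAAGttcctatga
Ddx21, chr10:62602299-62602448, minus strand: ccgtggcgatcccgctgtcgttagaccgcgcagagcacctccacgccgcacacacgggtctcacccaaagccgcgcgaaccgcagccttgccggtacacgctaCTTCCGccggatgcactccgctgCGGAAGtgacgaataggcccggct
Nolc1, chr19:46075697-46075846, plus strand: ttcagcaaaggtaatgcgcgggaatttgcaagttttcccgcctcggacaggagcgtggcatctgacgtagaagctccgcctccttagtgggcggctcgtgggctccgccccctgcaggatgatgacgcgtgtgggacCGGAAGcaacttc
In this window Nop2 held the ETS core at -145 and -37 and the E-box at -60, counted from the start to the motif's first base. Heatr1 held the ETS core at -15, Nolc1 at -13 and Ddx21 at -47 and -24. All 4 stretches thus had the ETS core within 50 bases of the start, and only that of Nop2 had the E-box. In the GENCODE annotation the genes span chromosome 6, 125131909 to 125144753, for Nop2, chromosome 13, 12395027 to 12440289, for Heatr1, chromosome 10, 62580251 to 62602281, for Ddx21 and chromosome 19, 46075863 to 46085530, for Nolc1. The GENCODE start of Heatr1 lies upstream of the RefSeq start used here, so its stretch falls inside the GENCODE gene.

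Among the 8 factors of RNA polymerase I transcription and the nucleolar scaffold, the 2 called members were Ddx21 and Nolc1, and the median log2 fold change was -0.29. In 7 of the 8 every Shh null library lay below every wild-type library. Over all tested genes 25.0% lay below in this way and 1.24% were called lower. Polr1b, the second largest subunit of RNA polymerase I, had 66.9 and 60.5 CPM in Shh null against 83.9 and 90.8 CPM in wild type. Its log2 fold change was -0.45 (limma adjusted p = 0.0590), close to those of Ddx21 and Nolc1, without passing the threshold. Polr1a, the largest subunit, had 103 and 112 CPM in Shh null against 130.1 and 123 CPM in wild type, a log2 fold change of -0.23 (limma adjusted p = 0.239).

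Nucleolin (Ncl), an abundant nucleolar RNA-binding protein, had 133 and 129 CPM in Shh null against 161 and 156 CPM in wild type (log2 fold change -0.27, limma adjusted p = 0.161). Npm1, nucleophosmin of the outer nucleolar layer, had 3642 and 3475 CPM in Shh null against 4041 and 4396 CPM in wild type (log2 fold change -0.24, limma adjusted p = 0.388). In both genes the genotypes did not overlap. Mybbp1a, a nucleolar Myb-binding protein, differed more between its wild-type libraries, with 146 and 165 CPM in Shh null against 166 and 223 CPM in wild type. Tcof1, which links RNA polymerase I transcription to RNA modification, overlapped between genotypes, with 42.6 and 39.8 CPM in Shh null against 42.0 and 43.3 CPM in wild type (log2 fold change -0.05, limma adjusted p = 0.847).

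The 7 RNA modification factors had a median log2 fold change of -0.35. Nop2 was the only one called, and 1.24% of all tested genes were called lower. Every Shh null library lay below every wild-type library in 6 of the 7, against 25.0% of all tested genes. The box C/D small nucleolar RNPs, which methylate riboses, are built on Nop56, Nop58 and the methyltransferase fibrillarin (Fbl). Nop56 had 224 and 259 CPM in Shh null against 331 and 293 CPM in wild type (log2 fold change -0.37, limma adjusted p = 0.122). Nop58 had 278 and 307 CPM in Shh null against 404 and 347 CPM in wild type (log2 fold change -0.36, limma adjusted p = 0.130). Both partners were low in both Shh null libraries and highest in wild-type library 1. Fbl overlapped between genotypes, with 43.6 and 46.1 CPM in Shh null against 44.1 and 52.2 CPM in wild type (log2 fold change -0.10, limma adjusted p = 0.712).

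Dkc1, the pseudouridine synthase of the box H/ACA particles, had 95.1 and 111 CPM in Shh null against 134 and 127 CPM in wild type (log2 fold change -0.35, limma adjusted p = 0.129). It is the only member on the X chromosome, and the sex makeup of the samples differed, as given above. The cytidine acetyltransferase Nat10 and the ribose methyltransferase Ftsj3 both had a log2 fold change of -0.26, with no overlap between genotypes and no call. Nat10 had 85.6 and 77.5 CPM in Shh null against 95.6 and 100.2 CPM in wild type, and Ftsj3 had 195 and 177 CPM in Shh null against 229 and 216 CPM in wild type.

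The small subunit processome was the largest class, with 16 members and a median log2 fold change of -0.30. In 12 members every Shh null library lay below every wild-type library, against 25.0% of all tested genes. Over all tested genes 1.24% were called lower, and Heatr1 was the only processome member called. In yeast and human cells its homologues work with those of Wdr43, Wdr75 and Utp15 in the complex that binds the precursor RNA first. Wdr43 had 194 and 189 CPM in Shh null against 238 and 260.5 CPM in wild type (log2 fold change -0.37, limma adjusted p = 0.0798). Wdr75 had 137 and 165 CPM in Shh null against 199 and 194 CPM in wild type (log2 fold change -0.38, limma adjusted p = 0.107). Utp15 had 121 CPM in each Shh null library against 146 and 164 CPM in wild type (log2 fold change -0.36, limma adjusted p = 0.0991). These 4 members had non-overlapping genotypes, with log2 fold changes between -0.49 and -0.36. Nol11, a further subunit of the vertebrate complex that is not a member, overlapped between genotypes, with 118 and 127 CPM in Shh null against 136 and 127 CPM in wild type (log2 fold change -0.10, limma adjusted p = 0.630).

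Utp18, Wdr3 and Wdr36 belong to a complex that joins the U3 small nucleolar RNP to the precursor. Wdr36 had 187 and 189 CPM in Shh null against 258 and 237 CPM in wild type (log2 fold change -0.39, limma adjusted p = 0.0680). Utp18 had 79.3 and 78.0 CPM in Shh null against 105 and 93.7 CPM in wild type, and Wdr3 had 119.7 and 141 CPM in Shh null against 163 CPM in both wild-type libraries. None of the 3 overlapped between genotypes. Rrp9, a protein of the U3 particle itself, had 22.7 and 25.4 CPM in Shh null against 31.3 and 30.6 CPM in wild type (log2 fold change -0.35, limma adjusted p = 0.164).

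The other processome members had log2 fold changes between -0.28 and 0.01. Imp3 and Imp4, which help the U3 RNA pair with the precursor, had log2 fold changes of -0.24 and -0.28 with non-overlapping genotypes, as did the HEAT-repeat protein Utp20 at -0.28. Noc4l had 19.7 and 20.3 CPM in Shh null against 25.0 and 21.1 CPM in wild type (log2 fold change -0.19). Its partner in yeast, Nop14, overlapped between genotypes with a log2 fold change of -0.08, and so did the helicase Ddx10 at -0.13 and the GTPase Bms1 at -0.07. Nol6 was the 1 member with a log2 fold change above 0, at 0.01, with 46.3 and 41.6 CPM in Shh null against 44.2 and 43.1 CPM in wild type. For these 4 overlapping genes the difference was within the spread of the libraries.

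Of the 4 late factors of the small subunit, 0 were called, against 1.24% of all tested genes called lower. Their median log2 fold change was -0.38. Every Shh null library lay below every wild-type library in 3 of the 4, against 25.0% of all tested genes. Rrp12, which in yeast takes part in the export of both subunits, had 48.5 and 46.1 CPM in Shh null against 60.6 and 69.0 CPM in wild type (log2 fold change -0.44, limma adjusted p = 0.0717). The assembly factor Tsr1 had 65.4 and 60.5 CPM in Shh null against 77.0 and 87.4 CPM in wild type (log2 fold change -0.38, limma adjusted p = 0.107). Both were lower in each Shh null library than in either wild-type library. Pno1 and Nob1 sit side by side on the precursor of the small subunit, where Nob1 makes the last cut of its RNA. Pno1 had 94.6 and 108 CPM in Shh null against 135 and 128 CPM in wild type (log2 fold change -0.38, limma adjusted p = 0.0943). Nob1 had 51.5 and 57.2 CPM in Shh null against 49.6 and 61.7 CPM in wild type (log2 fold change -0.03, limma adjusted p = 0.935), and its genotypes overlapped.

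The 14 large subunit factors had the smallest class median, a log2 fold change of -0.25. Of them 0 were called, against 1.24% of all tested genes called lower. In 12 every Shh null library lay below every wild-type library, against 25.0% of all tested genes. Gnl3, the nucleolar GTPase nucleostemin, had 94.3 and 119 CPM in Shh null against 149.8 and 142 CPM in wild type (log2 fold change -0.46 ± 0.12, limma adjusted p = 0.0823). The 3 proteins of the PeBoW complex, which is needed to process the large subunit's RNA, were all non-overlapping. Wdr12 had 79.3 and 88.2 CPM in Shh null against 116 and 106 CPM in wild type (log2 fold change -0.41, limma adjusted p = 0.0785). Bop1 had 63.3 and 62.9 CPM in Shh null against 77.4 and 80.2 CPM in wild type (log2 fold change -0.32, limma adjusted p = 0.131). Pes1 had 139 CPM in each Shh null library against 157 and 173 CPM in wild type (log2 fold change -0.25, limma adjusted p = 0.217). The order of the 3 log2 fold changes was not tested.

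Nip7, an RNA-binding assembly factor, had 98.3 and 108 CPM in Shh null against 133 and 134 CPM in wild type (log2 fold change -0.37, limma adjusted p = 0.0837). Grwd1, whose yeast homologue escorts a ribosomal protein, had 53.2 and 54.6 CPM in Shh null against 65.4 and 65.5 CPM in wild type, a log2 fold change of -0.28 with little spread within either genotype. Rrs1 had 16.4 and 15.7 CPM in Shh null against 18.5 and 22.3 CPM in wild type (log2 fold change -0.32). Rrp1b, Ebna1bp2, Noc2l, Nop16 and Noc3l were also non-overlapping, with log2 fold changes of -0.17 to -0.25. The GTPase Gnl2 overlapped, with 61.5 and 71.3 CPM in Shh null against 65.8 and 77.0 CPM in wild type (log2 fold change -0.10).

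Brix1 was the least reproducible member. It had 36.2 and 50.4 CPM in Shh null against 34.5 and 66.4 CPM in wild type, so the wild-type libraries enclosed both Shh null libraries. Its log2 fold change was -0.16 ± 0.26, and without wild-type library 1 it was -0.62 (limma adjusted p = 0.0141), whereas without wild-type library 2 it was 0.30. A direction for Brix1 therefore rested on 1 wild-type library.

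The size of the genotype difference was set against the gap between the 2 libraries of a genotype for each member. In 38 members the log2 fold change was larger than the wider of the 2 within-genotype gaps, and in 11 it was not. The same count was not made over all tested genes, so 38 describes the members and does not set them apart. The median absolute gap over members was 0.14 in Shh null and 0.12 in wild type on the log2 scale, about as wide as over all tested genes (0.14 and 0.13). The 11 comprised the 9 overlapping members, Mybbp1a and Noc4l. In these last genes the wild-type libraries lay apart, by 0.43 in Mybbp1a and 0.23 in Noc4l, which was more than the log2 fold changes of -0.31 and -0.19.

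**Figure D2:**
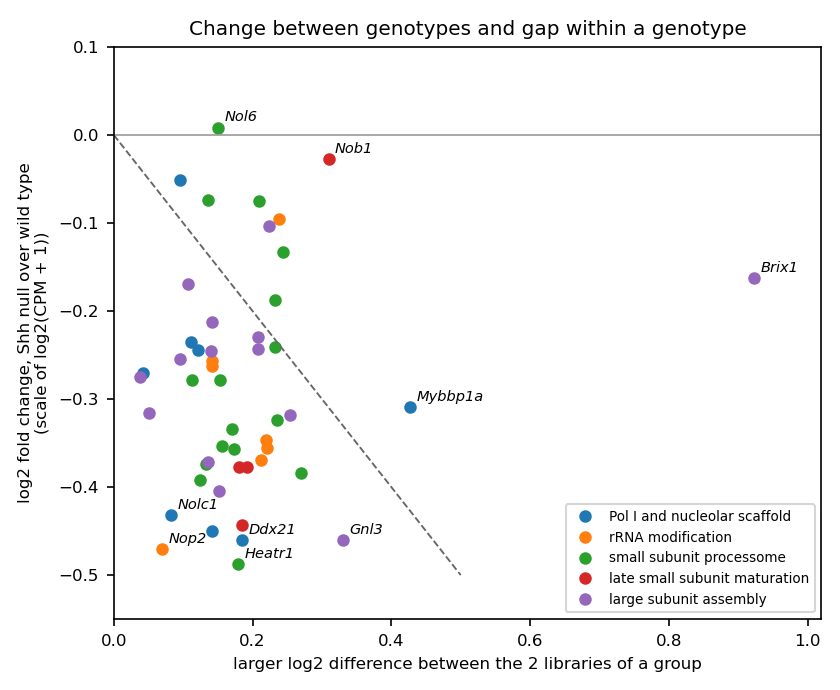
Genotype difference of each member (vertical axis, log2 fold change, Shh null minus wild type) against its larger gap between libraries of the same genotype (horizontal axis, log2 scale), coloured by role. On the dashed line the difference equals the gap. The 38 members below the line differ by more than their gap, and Brix1 lies far to the right with a gap of 0.92.

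Levels per kilobase, taken over the coding transcript of each gene, showed how unequal the members were in abundance. Npm1 stood far above the rest, with 2230 and 2128 CPM per kilobase in Shh null against 2474 and 2692 CPM per kilobase in wild type. The highest modification factor was Nop56, with 119 and 138 CPM per kilobase in Shh null against 176 and 156 in wild type, followed by Ftsj3 with 62.1 and 56.2 in Shh null against 72.7 and 68.6 in wild type. Wdr43 and Wdr75 led the processome, Pno1 and Nob1 the late small subunit factors, and Nop16 and Gnl3 the large subunit factors. Wdr43 had 56.3 and 54.9 CPM per kilobase in Shh null against 68.9 and 75.5 in wild type. Pno1 had 61.3 and 70.1 CPM per kilobase in Shh null against 87.7 and 83.1 in wild type. Ddx21, next to Npm1 in its class, had 36.1 and 38.2 CPM per kilobase in Shh null against 48.0 and 54.6 in wild type. The annotated transcripts of Ncl, Nop58 and Imp4 are long, up to 9507 bases, so their levels per kilobase may be read as low.

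A further 129 genes of the same pathway, listed by role and not by their values, had a median log2 fold change of -0.21. Earlier results of these data were known when the list was written, so its counts describe and do not test. Of the 129, 116 had a log2 fold change below 0, against 50.1% of all tested genes and 59.7% of those averaging 15 CPM or more. In 88 every Shh null library lay below every wild-type library, and in 2 the reverse held, against 25.0% and 25.1% of all tested genes. Of tested genes averaging 15 CPM or more, 32.1% lay below in this way. With limma 2 were called lower and 0 higher, a share near the 1.24% of all tested genes called in each direction. At an unadjusted p under 0.05 limma counted 54 lower and 0 higher, against 9.02% and 9.50% of all tested genes. The share lower at this threshold was 11.8% of tested genes averaging 15 CPM or more. Cirh1a, whose human homologue UTP4 belongs to the same early complex as Heatr1, had 57.3 and 60.8 CPM in Shh null against 89.6 and 88.3 CPM in wild type. Its log2 fold change was -0.58 ± 0.10 (SE; limma adjusted p = 0.0163), and the call was lost without Shh null library 1 (0.190) or library 2 (0.0772). Rpf2, which in yeast works with Rrs1 in large subunit assembly, had 71.1 and 81.5 CPM in Shh null against 104 and 109.6 CPM in wild type. Its log2 fold change was -0.48 ± 0.11 (SE; limma adjusted p = 0.0476), and without wild-type library 2 the adjusted p was 0.0545, without Shh null library 1 it was 0.354 and without library 2 it was 0.0897. The call of Rpf2 was also lost with edgeR (0.0534), quantile normalization (0.0990), a pseudocount of 0.1 (0.0503) and no filter (0.0828).

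By role, 0 of 13 further RNA polymerase I factors were called (median log2 fold change -0.18), 0 of 9 small nucleolar RNP factors (-0.35), 1 of 37 small subunit factors (-0.19), 1 of 47 large subunit factors (-0.25) and 0 of 23 nucleases and exosome subunits (-0.18). In the lists without a call the largest differences were in Polr1e, a polymerase I subunit, Naf1, an assembly factor of box H/ACA particles, and Exosc9, of the exosome core. Polr1e had 37.7 and 43.0 CPM in Shh null against 52.8 and 59.2 CPM in wild type (log2 fold change -0.46, limma adjusted p = 0.0761). Naf1 had 10.53 and 11.89 CPM in Shh null against 17.4 CPM in both wild-type libraries (log2 fold change -0.59, limma adjusted p = 0.0634). Exosc9 had 63.2 and 65.8 CPM in Shh null against 89.5 and 82.4 CPM in wild type (log2 fold change -0.41, limma adjusted p = 0.0709). All 3 were non-overlapping.

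The ribosomal proteins themselves gave other values. Of 77 cytosolic ribosomal protein genes picked by symbol after values had been seen, 74 were tested, 0 were called by limma in either direction, and 0 had an unadjusted p under 0.05. Their median log2 fold change was -0.09, and 63 were below 0. The share below 0 was 50.1% of all tested genes and 59.7% of those averaging 15 CPM or more. Between genotypes 68 overlapped, against 6588 of the 13224 tested genes. Their libraries also lay further apart within a genotype, with a median absolute log2 gap of 0.25 in Shh null and 0.21 in wild type. Over all tested genes the gaps were 0.14 and 0.13. Many of the ribosomal protein genes have near-identical processed copies that can share reads. The difference between their median and that of the assembly factors was not tested.

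**Figure D3:**
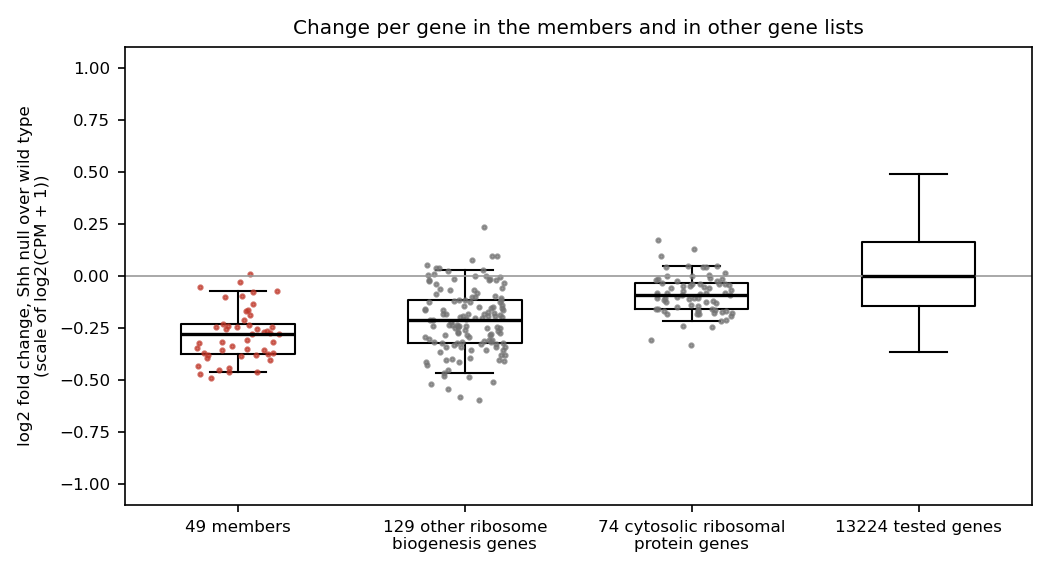
Log2 fold changes (vertical axis, Shh null minus wild type) of the 49 members, the 129 further pathway genes, the 74 tested cytosolic ribosomal protein genes and all 13224 tested genes. Points are genes (not drawn for all tested genes), boxes show the median and quartiles, and whiskers reach percentiles 5 and 95. The medians are -0.28 for the members, -0.21 for the further pathway genes, -0.09 for the ribosomal protein genes and -0.00048 for all tested genes.

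Myc proteins bind E-boxes with their partner Max and are known activators of ribosome biogenesis genes, while Mxd proteins pair with Max as repressors. The 11 genes of this network were split in direction, with 5 below and 6 above 0 and 1 called. Mxd4 rose, with 78.5 and 58.3 CPM in Shh null against 31.0 and 38.8 CPM in wild type (log2 fold change 0.94 ± 0.16, limma adjusted p = 0.0156), although without Shh null library 1 the adjusted p was 0.211. Mycn had 38.2 and 53.8 CPM in Shh null against 77.7 and 68.1 CPM in wild type, a log2 fold change of -0.67 ± 0.15 that missed the threshold (limma adjusted p = 0.0566). Mycn was called by DESeq2 (adjusted p = 0.00518) and by limma without wild-type library 1 (0.0263), wild-type library 2 (0.000893) or Shh null library 2 (0.0396). It was not called by edgeR (0.0637) or by limma without Shh null library 1 (0.367), where its log2 fold change was -0.43. Myc had 10.8 and 8.78 CPM in Shh null against 9.02 and 10.19 CPM in wild type, overlapping (log2 fold change 0.02, limma adjusted p = 0.965). Mycl1 had 30.8 and 29.6 CPM in Shh null against 41.9 and 41.5 CPM in wild type (log2 fold change -0.45, limma adjusted p = 0.0680). Whether any of these levels bears on those of the biogenesis factors was not tested.

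**Figure D4:**
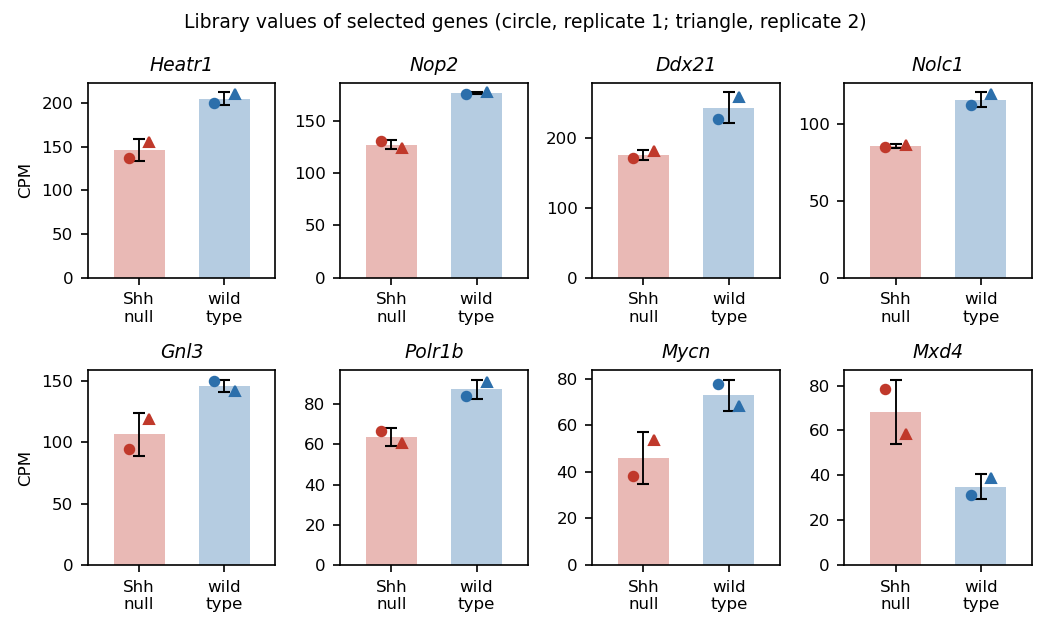
CPM of 8 selected genes, with Shh null left of wild type in each panel. Bars are means with SD (n = 2), circles replicate 1 and triangles replicate 2. Both Shh null symbols lie below both wild-type symbols in the 6 members shown and in Mycn, and above them in Mxd4.

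The members were spread over 18 chromosomes, so they do not form a cluster in the genome. Of the 49, 12 (24.5%) start within 1000 bases of another protein-coding gene that is transcribed in the opposite direction, against 1209 (10.1%) of 11935 tested genes with a protein-coding annotation. Of 11 partners tested, 6 had a log2 fold change below 0 and 5 above, with a median of -0.07 and 0 called. In 4 partners every Shh null library lay below every wild-type library. Of all tested genes 25.0% lay below in this way, and 32.1% of those averaging 15 CPM or more. The difference between partners and members was not tested. The log2 fold changes were close to each other in some pairs, at -0.23 and -0.30 for Polr1a and Ptcd3, -0.32 and -0.21 for Bop1 and Hsf1, and -0.26 and -0.17 for Ftsj3 and Psmc5. Brix1 and Rad1, whose starts lie 71 bases apart, both had -0.16, but the Brix1 value was poorly reproduced (SE 0.26), as given above. The values lay further apart in other pairs, at -0.36 and 0.01 for Utp15 and Ankra2, whose starts lie 33 bases apart, and at -0.33 and 0.12 for Utp18 and Mbtd1, 86 bases apart. Members with such a partner had a median log2 fold change of -0.25 and the 37 without had -0.32.

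Small nucleolar RNAs are often cut from introns of genes of the translation machinery. Of the members, 7 (14.3%) enclosed an annotated small nucleolar RNA gene, against 219 (1.83%) of the 11935 tested genes with a protein-coding annotation. Non-coding host genes were left out of that share. Together they held 21, of which 5 lay in Nop56, 4 in Nop58, 3 each in Ncl, Wdr43 and Gnl3, 2 in Tsr1 and 1 in Dkc1. These 7 hosts had a median log2 fold change of -0.37 and the other 42 members -0.27, a difference that was not tested. Some exons were shared with other annotated genes, which matters because the strand setting of the read counting was not given in the sources used here. More than 10% of exon bases were shared in 3 members, 32.3% in Tsr1 with Srr, 20.9% in Noc2l with Samd11 and 16.2% in Wdr3 with Spag17 and Gdap2, and reads there cannot be assigned to one gene with certainty.

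RefSeq promoters, 250 bases before to 50 bases after the start, were available for 40 of the 49 members. The other 9 were Npm1, Fbl, Tcof1, Nol6, Wdr36, Rrp12, Rrs1, Bop1 and Gnl2. The palindromic E-box CACGTG was found in 10 of the 40 (25.0%), in 17 of 103 promoters of the further pathway genes (16.5%), in 1146 of 9690 tested genes (11.8%) and in 8.09% of 27025 promoters of all genes. The members with it were distributed over all roles. Each is shown with up to 10 bases on either side, 5′ to 3′ on the gene's strand, because the same 6 letters recur in promoters that share little else around them; capitals mark the E-box.
Mybbp1a, chr11:72441357-72441376, plus strand, first base of the motif at 41: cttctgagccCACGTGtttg
Nop2, chr6:125131813-125131838, plus strand, first base of the motif at -60: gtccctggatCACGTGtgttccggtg
Wdr43, chr17:71616222-71616247, plus strand, first base of the motif at 18: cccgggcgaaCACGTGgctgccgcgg
Utp18, chr11:93885771-93885796, minus strand, first base of the motif at -20: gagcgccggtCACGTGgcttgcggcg
Utp20, chr10:88826765-88826787, minus strand, first base of the motif at 38: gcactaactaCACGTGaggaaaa
Imp4, chr1:34439698-34439723, plus strand, first base of the motif at -121: ggtcttagacCACGTGacatcccaaa
Pno1, chr11:17211540-17211562, minus strand, first base of the motif at 38: tacaaccacgCACGTGttcctct
Tsr1, chr11:74898094-74898119, plus strand, first base of the motif at 25: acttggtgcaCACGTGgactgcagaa
Pes1, chr11:3963967-3963992, plus strand, first base of the motif at 3: ctaggcagggCACGTGcgggaggaag
Grwd1, chr7:45830740-45830765, minus strand, first base of the motif at 35: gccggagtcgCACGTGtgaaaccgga
In 7 of the 10 (70.0%) the E-box began after the start, against 182 of 1372 E-boxes (13.3%) in the promoters of the tested genes. The median log2 fold change was -0.32 for the 10 members with the E-box and -0.27 for the 30 without it. Both groups thus lay below 0, and the difference between them was not tested.

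The ETS core CGGAAG, searched on both strands, was found in 23 of the 40 member promoters (57.5%) and in 65.0% of those of the further pathway genes, against 34.3% of tested genes and 18.8% of all genes. It includes the promoters of all 4 called members printed above. The NRF1 core TGCGCA was found in 8 (20.0%), against 16.1% of tested genes. CCAAT, searched on both strands, was found in 15 (37.5%), against 43.3% of tested genes, the only 1 of the 4 motifs with a lower share in the members. The E-box and the NRF1 core read the same on both strands, and none of the 4 motifs contains another. A match shows only that the letters are present and not that a factor binds there.

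**Figure D5:**
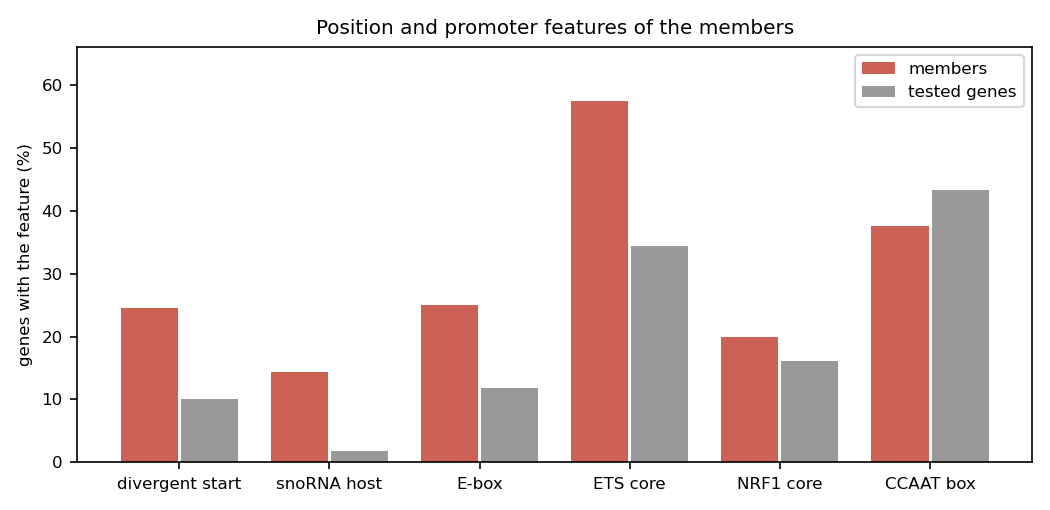
Share of genes (percent) that carry a feature, among the members and among the tested genes. The first features are a divergent protein-coding start within 1000 bases and an enclosed small nucleolar RNA (49 members, 11935 tested genes with a protein-coding annotation). The others are the E-box, ETS core, NRF1 core and CCAAT box in the promoter (40 members, 9690 tested genes). The members' share is higher for the first 5 features and lower for CCAAT (37.5% against 43.3%).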

How the data were processed

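Libraries were grouped by their genotype label (Shh null and wild type, 2 each) and numbered as in their titles. RNA was extracted with TRIzol, and the submitters' processing notes name TopHat2 2.0.9, SAMtools, HTSeq 0.5.4p5, edgeR 3.4.2 and genome build mm10. The part each tool played, the annotation and the strand setting were not given in the sources used here, and overlapping genes and copies may share reads. The authors deposited normalized signal values per gene and library. All of them (100%) were whole multiples of the value of 1 read, within 0.001 reads, and TMM factors recomputed from the recovered counts gave the deposited scale with 0% difference, so the deposited values are CPM. The authors also deposited a table with log2 fold changes, log2 CPM and p-values with false discovery rates, used only where named.

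Genes with at least 1 CPM in at least 2 libraries (13224) were fitted with limma 3.58.1 (trend) in R 4.3.3 on log2(CPM + 1), genotype as the only term. Alternatives were edgeR 4.0.16 and DESeq2 1.42.0 on the recovered counts, other scalings, pseudocounts and filters, a replicate block and leaving out each library. The limma and edgeR steps were run on simulated data with known changes, which checks the steps and not the calls reported here. Exact permutation over 2 against 2 libraries cannot give a p below 0.333 and was not used. An adjusted p under 0.05 was the threshold. Depth bounds the precision: 1 read was worth 0.0415 and 0.0457 CPM in Shh null and 0.0351 and 0.0551 CPM in wild type.

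The members and lists were chosen with earlier results of these data known. By rule, the text names every called member, in each of 5 role classes the 3 members with the largest absolute log2 fold change and the 2 highest per kilobase, the called or largest genes of the other lists, Shh, Myc and Mycn; other members are named so that each of the 49 is accounted for. Nol11, Mxd4, Mycl1, the divergent partners and the marker genes named singly fall outside the rule and were chosen after their values were seen. Positions, exons and small nucleolar RNAs came from GENCODE M21 (GRCm38) and promoters from RefSeq (GRCm38.p6). Levels per kilobase used the annotated transcript with the longest coding sequence.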

Additional observations from a re-analysis of the deposited data

How the results depend on the processing

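The count of members called lower was 4 in the reported fit. It was 2 with edgeR, 10 with DESeq2, 0 with quantile normalization, 2 with a pseudocount of 0.1, 0 with no filter on low values and 2 with the replicate block, and it ranged from 0 to 8 when 1 library was left out; the count of members called higher was 0 under every alternative run. Without a Shh null library no member was called, without wild-type library 1 there were 8 and without wild-type library 2 there were 7. The member median of -0.28 was -0.23 with quantile normalization and -0.32 to -0.28 with 1 library left out. The count of 40 members with every Shh null library below every wild-type library was 38 with quantile normalization and 40 to 48 with 1 library left out, where fewer libraries have to separate. Further pathway genes called lower numbered 1 with edgeR, 13 with DESeq2, 4 with median-ratio scaling, 1 with quantile normalization, 1 with a pseudocount of 0.1, 1 with no filter and 0 to 7 with 1 library left out. Over all tested genes the counts were 273 lower and 253 higher with DESeq2, 91 and 79 with no filter, and 41 to 416 lower and 15 to 386 higher with 1 library left out. Directions turned in genes near 0. Nol6 had a log2 fold change of -0.0024 with median-ratio scaling, and with quantile normalization Bms1 had 0.018, Nob1 0.0080 and Myc -0.0554. With 1 library left out the log2 fold change ranged from -0.21 to 0.0239 in Fbl, -0.0671 to 0.0837 in Nol6, -0.18 to 0.0294 in Nop14, -0.18 to 0.13 in Nob1, -0.21 to 0.0085 in Gnl2, -0.62 to 0.30 in Brix1 and -0.11 to 0.15 in Myc. The cause of these shifts was not tested. Libraries of the same number did not shift together across genotypes (correlation of the number 1 minus number 2 differences between genotypes -0.20). That value does not settle how the libraries were prepared or paired, so the block is an alternative only. Under the block 176 genes were called lower and 220 higher, with 3 further pathway genes lower and a member median of -0.28. The block also called Mycn (limma adjusted p = 0.0171). A crossed pairing, chosen after seeing the data, gave 745 genes lower and 641 higher, with 22 members and 35 further pathway genes lower.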
